A study of Homo sapiens with 6 samples.

Results

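Amino acid transporters of 22Rv1 cells, a human prostate cancer line, were followed in RNA-seq counts before and after 6 weeks of repeated DNA damage. The group holds 10 genes of the solute carrier (SLC) families, SLC3A2, SLC7A5, SLC7A11, SLC7A1, SLC6A9, SLC38A1, SLC38A2, SLC1A4, SLC1A5 and SLC43A1, out of 29804 gene symbols in the count table. The members were chosen by symbol when earlier comparisons of these same counts were already known. Their levels and differences are therefore given as a description, and which of them passed a threshold is no independent test. WT cells were untreated 22Rv1 cells taken at week 0. AM (age matched) cells grew for 6 weeks without drug. 6WP cells received 1 µg/ml of phleomycin, a drug that breaks DNA strands, on each week day over the same 6 weeks. Each group had 2 libraries that the labels name biological replicates, and all 6 libraries carry the wild type genotype label, so that WT is here the name of a time and treatment. The model is 1 cell line, and 6WP cells are those that survived the drug.

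The plasma membrane is a barrier to amino acids, which enter and leave cells through carriers that differ in substrate and in driving force. Heteromeric carriers pair the glycoprotein SLC3A2 with a transporting light chain of the SLC7 family, while SLC1 and SLC38 carriers use the sodium gradient. In many cell types the transcription factor ATF4, which is made when amino acids are short or when unfolded proteins build up in the endoplasmic reticulum, binds C/EBP-ATF response elements in genes of amino acid transport and synthesis.

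Total counts ranged from 21222201 to 35311945 per library. Levels are given as CPM, counts scaled to a common TMM-normalized library size, and 3 counts, taken as the detection floor, corresponded to 0.0883 to 0.138 CPM. This floor covers counting error only. Every member passed the filter on low counts, with at least 350 counts in each library. All 8 markers of prostate luminal epithelium were detected, at 24.5 CPM or more in each library, and the 10 markers of basal, fibroblast, leukocyte and endothelial cells reached at most 2.46 CPM. Counting noise alone gives a chi-square per degree of freedom of 1 between replicates, and the values were 4.80 for WT, 7.59 for AM and 52.1 for 6WP libraries. As the RNA came from whole cultures, a change in the share of cells that express a gene and a change in RNA per cell cannot be told apart.

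The sequence TGATGNAA, the core of C/EBP-ATF response elements, was searched on both strands near the gene starts, because ATF4 is known for several of these genes. RefSeq promoters of GRCh38.p14 were present for 9 of the 10 members, and SLC7A11 had no entry. In the 250 bases before the start, 1 of 16 promoters of members (6.25%) held the motif, against 3.14% of all 35116 promoters. The match belongs to an internal start of SLC1A5. In a wider window chosen after the counts had been seen, from 500 bases before to 1000 bases after the start of the canonical GENCODE transcript, 7 of the 9 members (77.8%) held it. The same window held it in 12.8% of 15367 protein-coding genes and in 1 of 33 other amino acid transporters (3.03%). The wider window was also limited to genes with a promoter entry, so SLC7A11 was not searched. Because ATF4 was already known for several members, these shares are a description and no independent test. A match describes letters in the genome and not a bound site. The matches follow, 5' to 3' in the direction of the gene with the motif in capitals, so that a match on the opposite strand reads TTNCATCA.

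SLC3A2: gcaggactccTTACATCAgctcctctga
SLC7A5: ccctgcatccTTGCATCActacgcccct
SLC7A1, first match: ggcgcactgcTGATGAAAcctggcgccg
SLC7A1, second match: gcgtggtgcaTGATGCAAcaccgagtga
SLC6A9: ctcgggaggcTGATGCAActttcccttt
SLC38A1: ggggagattcTGATGCAAtcggcccgga
SLC38A2: acgatcgataTTGCATCAgttttctttc
SLC1A4: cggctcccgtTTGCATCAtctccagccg
SLC1A5, internal start: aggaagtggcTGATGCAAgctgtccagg

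On GRCh38, the SLC3A2 sequence lies at chr11:62881726-62881753 in an intron, with the motif 840 bases after the start. The SLC7A5 sequence, at chr16:87868809-87868836, is also intronic, at 681 bases after the start. SLC7A1 holds a match in the 5' untranslated exon at 7 bases after the start (chr13:29595664-29595691) and another in an intron at 531 bases (chr13:29595140-29595167). In SLC6A9 (chr1:44031370-44031397) and SLC38A1 (chr12:46268790-46268817) the match falls in the untranslated part of an exon, 75 and 236 bases after the start. The SLC38A2 match is intronic, 713 bases after the start (chr12:46372043-46372070). In SLC1A4 the motif begins 7 bases before the start and runs across it (chr2:64989382-64989409). The internal SLC1A5 match begins 97 bases before that start (chr19:46784894-46784921). SLC43A1 and the main start of SLC1A5 held no match in either window.

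**Figure D1:**
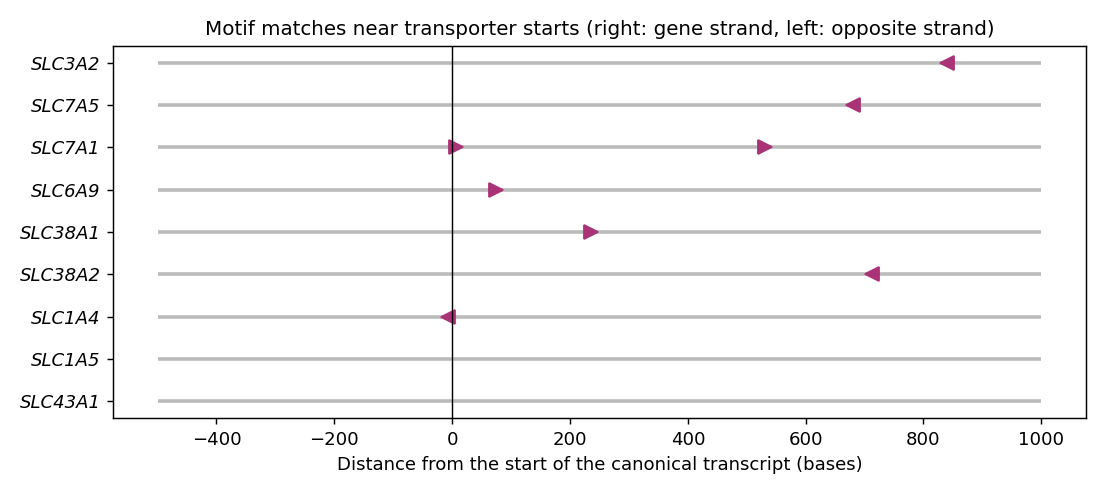
Position of each TGATGNAA match (triangles, pointing right for the gene strand and left for the opposite strand) in bases from the start of the canonical transcript, for the 9 transporters with a promoter entry; grey lines mark the window searched. Matches are seen in 7 of the 9 genes, from 7 bases before to 840 bases after the start.

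Most of the transporters had more RNA in 6WP cells than in WT cells, and part of this difference was already present in AM cells. In 6WP against WT cells, 6 of the 10 members were higher at an adjusted p-value under 0.05 (SLC3A2, SLC7A5, SLC6A9, SLC1A4, SLC1A5 and SLC43A1). At this threshold 1.63% of the 14672 tested genes were higher and 1.37% lower. No member was lower: edgeR's quasi-likelihood test called 0, the DESeq2 Wald test 0, and 0 were lower at an unadjusted p-value under 0.05. The median log2 fold change of the members was 0.92, and that of all tested genes was 0.01. In 9 of the 10 members both 6WP libraries lay above both WT libraries, which held for 25.5% of all tested genes. Together the members took between 0.285% and 0.290% of the counts in WT, between 0.292% and 0.294% in AM and between 0.374% and 0.400% in 6WP libraries. This share depends most on SLC38A2, which held 31653 of the members' 64182 counts in WT replicate 1. The mean of SLC38A2 was 1391 CPM in WT and 1065 CPM in AM cells. In AM against WT cells 8 members had a positive log2 fold change, which the share does not show. The number of calls changed when a library was left out. A group left with 1 library adds nothing to the estimate of spread. Log2 fold changes of SLC3A2 and SLC1A4 moved less when a WT library was left out. Without WT replicate 1 and 2, SLC3A2 had 1.17 and 1.25 (1.21 with all libraries), and SLC1A4 had 0.92 and 0.77 (0.84 with all libraries). Leaving out a 6WP library moved some members more. Without 6WP replicate 1 and 2, SLC7A11 had 0.92 and 0.51, SLC7A1 had 0.69 and 0.35 and SLC43A1 had 1.37 and 1.02, while SLC3A2 had 1.13 and 1.24. Without WT replicate 1 or without WT replicate 2, 0 members passed and 0 genes of the whole table did, with 8 members at an unadjusted p-value under 0.05 in each case (1456 and 1900 of all genes). With a 6WP library left out, the spread came from the WT and AM libraries alone. Their replicates were closer, with a chi-square per degree of freedom of 4.80 and 7.59 against 52.1 for 6WP. A larger number of calls without a 6WP library, in any comparison, is therefore no sign of a firmer difference.

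Against AM cells, 6WP cells again had 6 members higher and 0 lower (SLC3A2, SLC7A5, SLC7A11, SLC6A9, SLC38A2 and SLC1A5). DESeq2 also called 6 higher and 0 lower, and at an unadjusted p-value under 0.05 there were 6 higher and 0 lower. Of all tested genes, 11.7% were higher and 9.68% lower. The whole table is sensitive to scaling here, since the 1711 higher and 1420 lower genes became 2276 and 1062 with upper quartile normalization. The median log2 fold change was 0.39 for the members and 0.05 for all genes, and the libraries of 7 members did not overlap, as for 33.8% of all genes in this direction. The number of members that passed was 3 without either WT library, 1 without AM replicate 1 (SLC7A11), 1 without AM replicate 2 (SLC6A9), 8 without 6WP replicate 1 and 6 without 6WP replicate 2. Both comparisons use the same 6WP libraries, so they are not independent.

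The AM cells, which differed from WT cells by 6 weeks of growth without the drug, were compared in the same way. In AM against WT cells, 6 of the 10 members were higher (SLC3A2, SLC7A5, SLC6A9, SLC1A4, SLC1A5 and SLC43A1) and 0 were lower with edgeR. DESeq2 called 6 higher and 1 lower (SLC38A2), and at an unadjusted p-value under 0.05 the numbers were also 6 and 1. Among all tested genes 7.74% were higher and 9.93% lower, with 1136 and 1457 genes, which changed to 689 and 1832 with upper quartile normalization. The members' median log2 fold change was 0.51 and that of all genes was 0.00. The libraries did not overlap in 8 members that were higher and in 2 that were lower, and for all genes each of these directions held 36.9%. Without WT replicate 1, WT replicate 2 or AM replicate 2, 0 members passed, with 6, 6 and 7 at an unadjusted p-value under 0.05. Without AM replicate 1 there was 1 member, and without either 6WP library all 10 members passed, 8 higher and 2 lower. In 5 members, SLC3A2, SLC7A5, SLC7A1, SLC6A9 and SLC1A5, every AM library lay above every WT library and below every 6WP library, an order found in 3.2% of all tested genes.

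**Figure D2:**
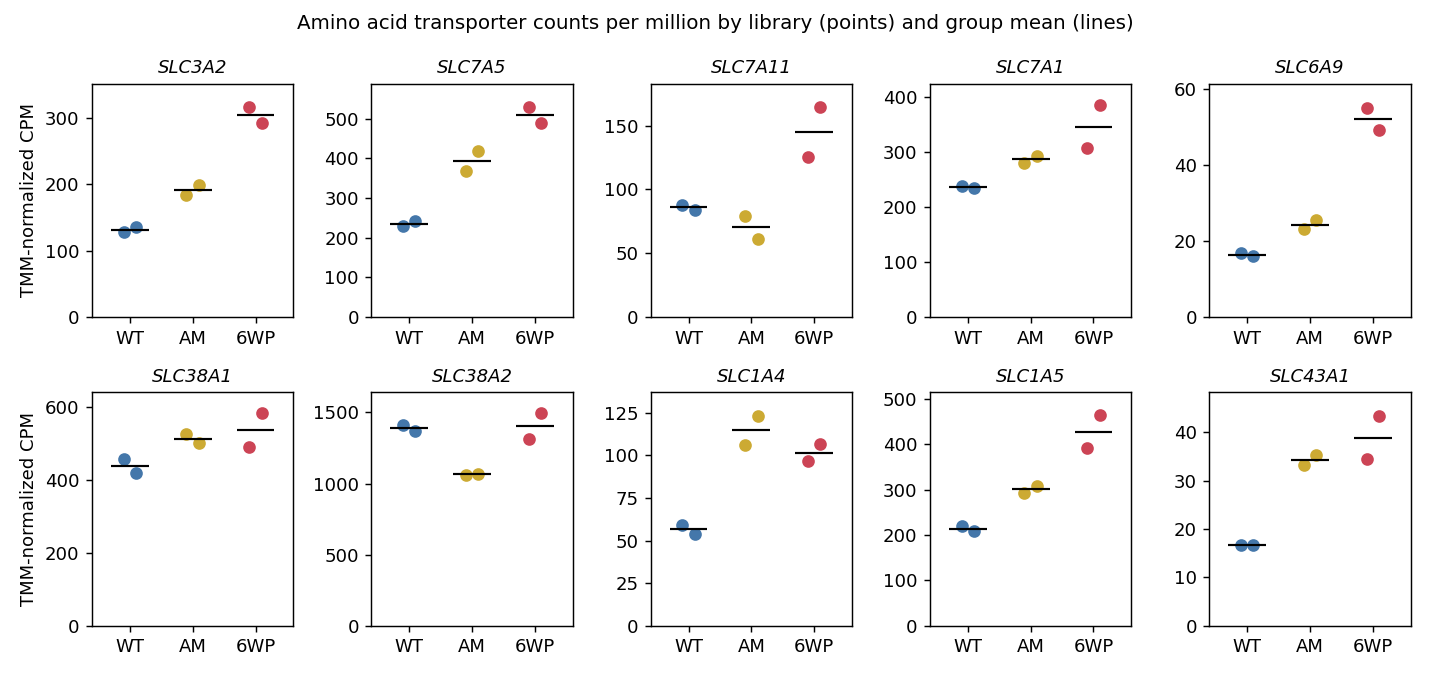
TMM-normalized CPM (linear axes from 0) of the 10 transporters in WT, AM and 6WP libraries; each point is 1 library and each line the mean of 2. SLC3A2, SLC7A5, SLC7A1, SLC6A9 and SLC1A5 ascend from WT through AM to 6WP without overlap, whereas SLC1A4 and SLC43A1 are already near the 6WP level in AM, and SLC7A11 and SLC38A2 are lowest in AM.

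SLC3A2 (chromosome 11, 62856004 to 62888880), the glycoprotein that carries light chains to the cell surface, had 128 and 136 CPM in the WT libraries, 185 and 199 in AM and 317 and 292 in 6WP. Each group was separate from the others. It rose 2.31-fold in 6WP against WT cells, a log2 fold change of 1.21 (standard error 0.11). The difference was 0.67 (standard error 0.11) against AM cells and 0.54 (standard error 0.11) in AM against WT cells. Leaving out any library kept 6WP against WT between 1.13 and 1.25.

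SLC7A5 (chromosome 16, 87830023 to 87869507) is the light chain that exchanges large neutral amino acids such as leucine, and with SLC3A2 it forms LAT1. The WT libraries had 229 and 241 CPM, the AM libraries 368 and 418 and the 6WP libraries 530 and 490. All groups were separate, and the larger part of the increase lay between WT and AM cells, where the log2 fold change was 0.74 (standard error 0.11). From AM to 6WP it was 0.38 (standard error 0.11), close to the threshold with an adjusted p of 0.0476. This call was lost in 7 of 14 alternatives, with adjusted p-values of 0.0584 with DESeq2 size factors, 0.0649 with a replicate block, 0.123 with the 2 groups alone, 0.124 and 0.131 without WT replicate 1 and 2, and 0.315 and 0.142 without AM replicate 1 and 2. SLC7A5 rose 2.17-fold in 6WP against WT cells. Reads of the related pseudogenes SLC7A5P1 and SLC7A5P2 were few, with a summed level of 0.177 to 0.322 CPM in each library.

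SLC7A11 (chromosome 4, 138164097 to 138242349), also a partner of SLC3A2, takes up cystine in exchange for glutamate and so feeds glutathione synthesis. It had 87.9 and 84.1 CPM in WT, 78.9 and 61.4 in AM and 125 and 164 in 6WP libraries. AM cells were lowest and 6WP cells highest, without overlap, but its replicates were far apart, with 0.39 on the log2 scale between the 6WP libraries. SLC7A11 rose 2.06-fold in 6WP against AM cells, a log2 fold change of 1.04 (standard error 0.17). Against WT cells the log2 fold change was 0.75 (standard error 0.17) with an adjusted p of 0.0560, and it passed with the DESeq2 Wald test (0.00476) and with no filter on low counts (0.0130). AM against WT cells gave -0.30 (standard error 0.17, adjusted p = 0.242), which did not pass. The value depended on the AM libraries, with -0.49 without AM replicate 1 and -0.14 without AM replicate 2. It passed with the 2 groups alone (adjusted p = 0.0286). In 6WP against WT cells the log2 fold change of SLC7A11 was 0.92 without 6WP replicate 1 and 0.51 without 6WP replicate 2.

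The light chains could be set against SLC3A2 after division by transcript length. The sum of SLC7A5, SLC7A6, SLC7A7, SLC7A8, SLC7A10 and SLC7A11, all known partners, was 68.5 and 71.0 CPM per kb in WT, 96.9 and 106 in AM and 135 and 133 in 6WP libraries. Relative to SLC3A2 this was a ratio of 1.01 and 0.986 in WT, 0.989 and 1.00 in AM and 0.805 and 0.858 in 6WP libraries. The ratio was thus lower in both 6WP libraries than in the other 4. Its value rests on 1 transcript length per gene, while SLC3A2 has 41 annotated transcripts. It compares RNA per kb and does not measure the ratio of the proteins. SLC7A5 made up between 73.5% and 86.7% of the light chain sum, and SLC7A11 between 6.02% and 13.3%. The other partners did not pass in any of the comparisons, with log2 fold changes in 6WP against WT cells of -0.36 for SLC7A6, -0.40 for SLC7A8 and 0.00 for SLC7A7, and SLC7A10 was too low to be tested.

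SLC43A1 (chromosome 11, 57484534 to 57515780) moves large neutral amino acids without SLC3A2. Its level was 16.6 CPM in both WT libraries, 33.3 and 35.2 in AM and 34.4 and 43.3 in 6WP libraries. AM and 6WP libraries overlapped, and WT libraries lay below both. SLC43A1 rose 2.06-fold in AM against WT cells (log2 fold change 1.04, standard error 0.14) and 2.34-fold in 6WP against WT cells (1.23, standard error 0.14). Between 6WP and AM cells the log2 fold change was 0.18 (standard error 0.14), which was 0.34 without 6WP replicate 1 and -0.03 without 6WP replicate 2.

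SLC7A1 (chromosome 13, 29509414 to 29595688), a carrier of arginine and lysine, had 237 and 234 CPM in WT, 280 and 293 in AM and 307 and 385 in 6WP libraries. The groups did not overlap, although no comparison passed. In 6WP against WT cells SLC7A1 had a log2 fold change of 0.55 (SE 0.13) and an adjusted p of 0.0604, which became 0.0120 with the DESeq2 Wald test and 0.0250 with no filter on low counts. The log2 fold change was 0.69 without 6WP replicate 1 and 0.35 without 6WP replicate 2. Against AM cells the value was 0.27 (SE 0.13), with 0.42 without 6WP replicate 1 and 0.07 without 6WP replicate 2.

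SLC6A9 (chromosome 1, 43991500 to 44031467), the sodium and chloride dependent glycine transporter GlyT1, had the largest log2 fold changes of the members in 6WP against WT and in 6WP against AM cells, though not in AM against WT cells. The WT libraries had 16.7 and 16.1 CPM, the AM libraries 23.1 and 25.5 and the 6WP libraries 55.0 and 49.2. Both 6WP libraries lay above both AM libraries, and these above both WT libraries. SLC6A9 rose 3.17-fold in 6WP against WT cells (log2 fold change 1.67, standard error 0.13) and 2.14-fold against AM cells (1.10, standard error 0.12). AM against WT cells gave 0.57 (standard error 0.13). Over all 14 alternatives the log2 fold change of 6WP against WT cells lay between 1.57 and 1.72.

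SLC1A5 (chromosome 19, 46774883 to 46788594) is ASCT2, a sodium dependent exchanger of glutamine and other neutral amino acids. It had 219 and 210 CPM in WT, 293 and 307 in AM and 393 and 464 in 6WP libraries. The groups were separate, and the steps from WT to AM (log2 fold change 0.49, standard error 0.12) and from AM to 6WP (0.51, standard error 0.12) were of similar size. Against WT cells it rose 2.00-fold in 6WP cells. Its relative SLC1A4 (chromosome 2, 64988477 to 65023865), or ASCT1, which exchanges alanine, serine and cysteine, had 59.4 and 53.9 CPM in WT, 106 and 123 in AM and 96.7 and 107 in 6WP libraries. SLC1A4 thus rose 2.02-fold in AM against WT cells (1.02, standard error 0.12) and 1.79-fold in 6WP against WT cells (0.84, standard error 0.12). The libraries of 6WP and AM cells overlapped, and the log2 fold change was -0.17 (standard error 0.12). When the model held no AM library, the adjusted p of SLC1A4 in 6WP against WT cells was 0.0562.

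SLC38A2 (chromosome 12, 46358188 to 46372773), or SNAT2, concentrates small neutral amino acids with sodium and is itself known to respond to amino acid supply. It was the most abundant member, with 1413 and 1368 CPM in WT, 1061 and 1069 in AM and 1312 and 1498 in 6WP libraries. WT and 6WP libraries overlapped, and both AM libraries lay below. In 6WP against AM cells it rose 1.32-fold (log2 fold change 0.40, standard error 0.11, adjusted p = 0.0425), a call lost in 7 of 14 alternatives. Its adjusted p-values there were 0.0554 with DESeq2 size factors, 0.0591 with a replicate block, 0.121 with the 2 groups alone, 0.115 and 0.123 without WT replicate 1 and 2, and 0.227 and 0.211 without AM replicate 1 and 2. AM against WT cells gave -0.38 (standard error 0.11, adjusted p = 0.0541), and 6WP against WT cells 0.01 (standard error 0.11). The neighbouring gene SLC38A1 (chromosome 12, 46183063 to 46270017), or SNAT1, had 458 and 420 CPM in WT, 526 and 503 in AM and 491 and 585 in 6WP libraries. AM and 6WP libraries overlapped, and no comparison of SLC38A1 passed, with 0.29 (standard error 0.12) in 6WP against WT cells. That value was 0.40 without 6WP replicate 1 and 0.14 without 6WP replicate 2.

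**Figure D3:**
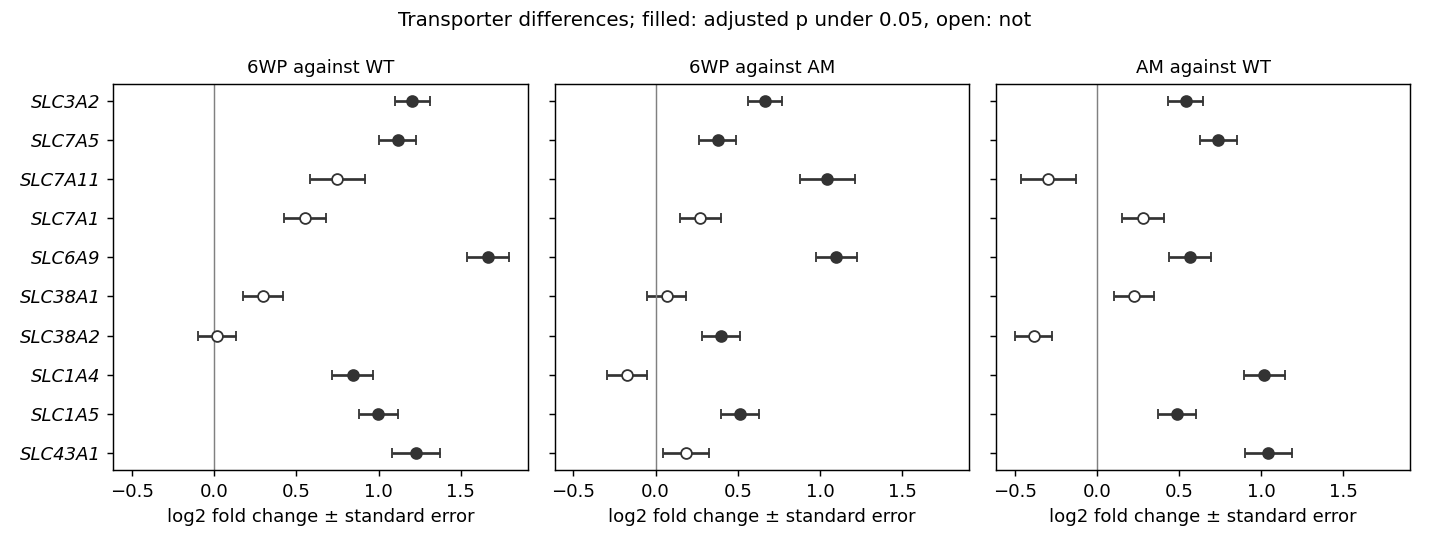
Log2 fold changes with standard errors (bars) of the 10 transporters in the 3 comparisons; filled points passed an adjusted p-value of 0.05 and open points did not. SLC6A9 has the largest value in 6WP against WT cells, 1.67, while SLC1A4 and SLC43A1 differ in AM against WT cells and lie near 0 in 6WP against AM cells.

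The 6WP replicates did not deviate alike in all members. SLC3A2, SLC7A5 and SLC6A9 were higher in 6WP replicate 1, and the other 7 were higher in 6WP replicate 2. Exons of SLC7A5, SLC7A11, SLC6A9 and SLC1A5 overlap exons of another annotated gene on the opposite strand, for example SLC7A11-AS1 and, for SLC6A9, CCDC24. The libraries were stranded, but the strand setting of the counting is not given in the sources used here, so these reads cannot be assigned with certainty. The remaining 6 members overlap no exon of another gene.

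Per kb of canonical transcript, the levels spanned more than an order of magnitude. In WT cells SLC38A2 was highest with 290 ± 6.62 CPM per kb, followed by SLC1A5 with 74.3 ± 2.27 and SLC3A2 with 70.0 ± 2.84 (SD, n = 2 each), whose libraries came close without overlap (72.7 against 72.0). SLC38A1 with 54.2 ± 3.32 and SLC7A5 with 51.6 ± 1.82 overlapped, and SLC7A1 stood at 32.1 ± 0.241. The lowest were SLC1A4 with 12.4 ± 0.851, SLC7A11 with 8.92 ± 0.281, SLC43A1 with 6.61 ± 0.00613 and SLC6A9 with 5.12 ± 0.146, each apart from its neighbours. In 6WP cells SLC3A2, with 161 ± 9.18, came before SLC1A5 with 149 ± 17.4, though their libraries overlapped. SLC7A5 reached 112 ± 6.21 and was separate from SLC38A1 with 66.5 ± 8.22. SLC6A9 with 16.2 ± 1.26, SLC43A1 with 15.5 ± 2.51 and SLC7A11 with 15.0 ± 2.87 overlapped one another. These levels rest on 1 transcript per gene, and SLC3A2 has 41 annotated transcripts.

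**Figure D4:**
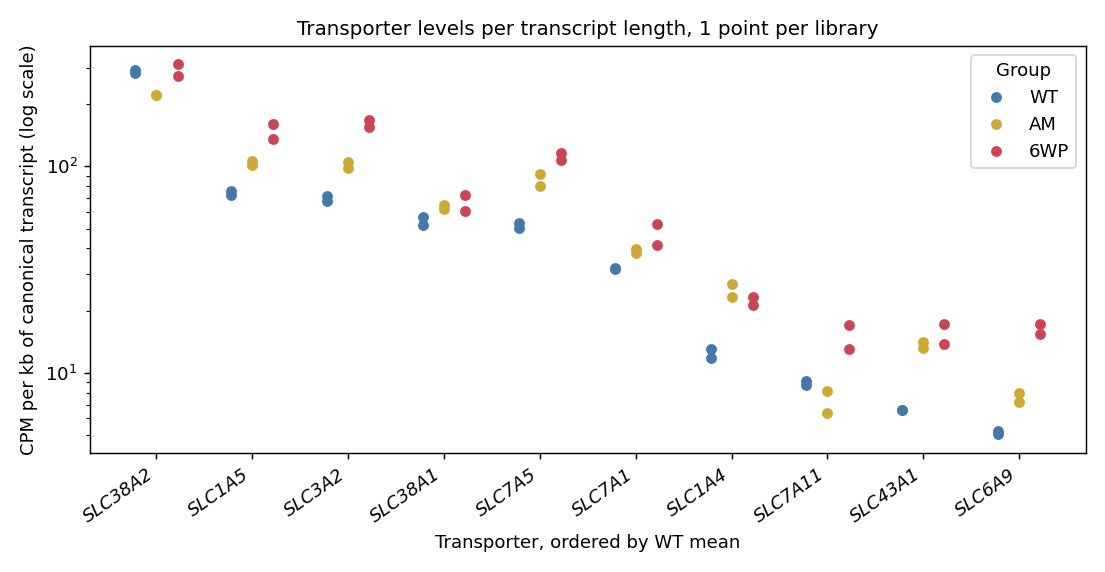
Level of each transporter in CPM per kb of canonical transcript (log scale), ordered by the WT mean, with 1 point per library. SLC38A2 lies above the other members in every library, and the 3 lowest members in 6WP cells lie between 13.0 and 17.2.

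The other carriers of the amino acids found in proteins, at the plasma membrane or lysosome, were taken as a list by gene family. This list leaves out the members, which were chosen with results of these counts known. It is therefore no independent control for the members. Of 41 such genes, 20 were too low to be tested, at 0.413 CPM or less in every library, and 8 of these had no count at all. Among the 21 tested, 0 were higher and 1 was lower in 6WP than in WT cells with edgeR, against 1.63% and 1.37% of all genes. DESeq2 called 0 higher and 2 lower, and at an unadjusted p-value under 0.05 there were 3 higher and 3 lower. The median log2 fold change was -0.10. SLC36A1, a proton coupled exporter of small amino acids from lysosomes, fell from 39.6 to 26.0 CPM (log2 fold change -0.61, standard error 0.12, adjusted p = 0.0378). This call was lost with the replicate block, with either WT or either AM library left out and when the model held no AM library, and without 6WP replicate 1 or 2 the list had 4 and 6 calls.

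Against AM cells, 3 of the 21 were higher in 6WP cells and 0 were lower, beside 11.7% and 9.68% of all genes, with 3 and 1 by DESeq2 and 3 and 2 at an unadjusted p-value under 0.05. SLC7A2, a cationic amino acid carrier like SLC7A1, rose from 31.1 to 56.4 CPM, although its AM libraries differed (38.6 and 23.7 CPM; log2 fold change 0.86, standard error 0.21, adjusted p = 0.0258). SLC1A1, a glutamate transporter that also takes up cysteine, rose by 0.79 (standard error 0.18, adjusted p = 0.0208) and SLC6A15, a carrier of branched chain amino acids and proline, by 0.74 (standard error 0.15, adjusted p = 0.0141). The list had 1 call without either WT library or without AM replicate 1, 0 without AM replicate 2 (4 at an unadjusted p-value under 0.05), and 8 and 6 without 6WP replicate 1 and 2.

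Relative to WT cells, AM cells had less of the same 3 genes, with log2 fold changes of -1.08 for SLC7A2 (adjusted p = 0.0148), -0.89 for SLC1A1 (adjusted p = 0.0169) and -0.85 for SLC6A15 (adjusted p = 0.0114), as was the glutamate and aspartate transporter SLC1A3 with -0.98 (adjusted p = 0.0100). These comparisons share the AM libraries. Thus 4 of the 21 were lower and 1 was higher, beside 9.93% and 7.74% of all genes. The gene that rose in AM cells was SLC6A17, by 1.09 (standard error 0.26, adjusted p = 0.0276), from 2.92 to 6.24 CPM. SLC43A2, the relative of SLC43A1, had 0.64 (standard error 0.19) and did not pass. The number of calls was 0 without either WT library or without AM replicate 2 (7 at an unadjusted p-value under 0.05 in each case), 1 without AM replicate 1, and 11 and 10 without 6WP replicate 1 and 2. None of the 21 genes ascended from WT through AM to 6WP without overlap.

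**Figure D5:**
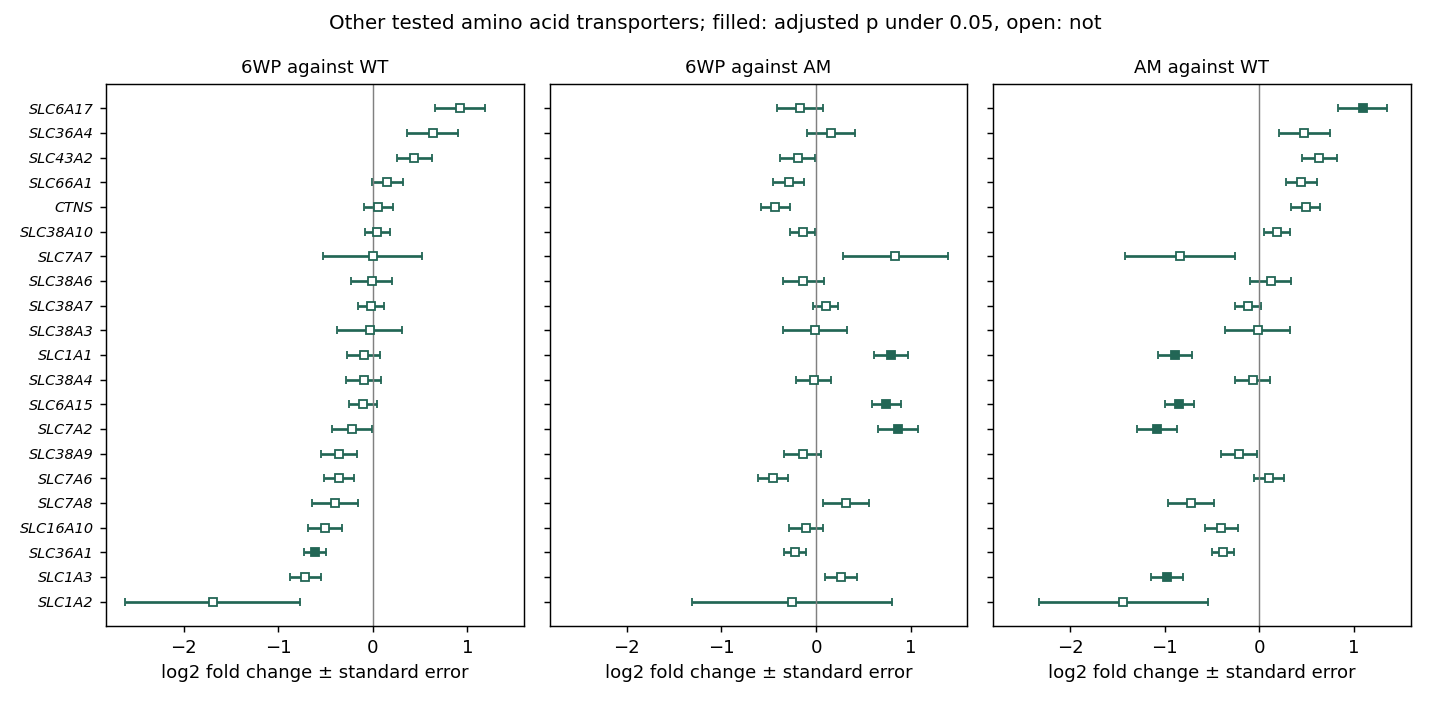
Log2 fold changes with standard errors (bars) of the 21 other amino acid transporters tested, ordered by 6WP against WT cells; filled squares passed an adjusted p-value of 0.05 and open squares did not. In 6WP against WT cells SLC36A1 is the 1 filled square, and in AM against WT cells 4 of 5 filled squares lie below 0.

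Amino acids also pass the inner mitochondrial membrane. Of 11 carriers listed, 10 were in the table and 9 were tested, and 0 passed in 6WP against WT cells with edgeR (1 lower with DESeq2, and 0 higher and 4 lower at an unadjusted p-value under 0.05). In 6WP against AM cells 4 were lower and 0 higher with edgeR and with DESeq2 and also at an unadjusted p-value under 0.05, beside 9.68% and 11.7% of all genes. The 4 were SLC25A13, an aspartate and glutamate carrier, with -0.92 on the log2 scale (adjusted p = 0.00272), SLC25A44, a carrier of branched chain amino acids, with -0.64 (adjusted p = 0.00704), the serine transporter SFXN1 with -0.63 (adjusted p = 0.00836) and the glutamate carrier SLC25A22 with -0.51 (adjusted p = 0.0302). SLC25A13 and SLC25A22 were higher in AM than in WT cells, by 0.67 (adjusted p = 0.00755) and 0.55 (adjusted p = 0.0284), which is 2 of 9 beside 7.74% of all genes.

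Genes of amino acid sensing, of the kinase complex mTORC1 and of its activation formed a list of 25 that were all tested. The numbers called were 1 higher in 6WP against WT cells, 2 higher and 1 lower in 6WP against AM cells, and 3 higher and 1 lower in AM against WT cells. Over all genes, 1.63% were higher in the first comparison, 11.7% higher and 9.68% lower in the next, and 7.74% higher and 9.93% lower in the last. In 6WP against WT cells the gene was SESN2, a leucine sensor and stress gene, which rose from 36.0 to 104 CPM (log2 fold change 1.53, standard error 0.17, adjusted p = 0.00654). The 6WP libraries differed in SESN2, with 119 CPM in replicate 1 and 87.9 in replicate 2. Against AM cells SESN2 rose by 0.98 (adjusted p = 0.00818) and SESN3 by 0.95 (adjusted p = 0.00606), while RHEB, the small GTPase that activates mTORC1, fell by 0.41 (adjusted p = 0.0454). In AM against WT cells RHEB (0.51, adjusted p = 0.0273), RRAGC (0.49, adjusted p = 0.0213) and LAMTOR1 (0.46, adjusted p = 0.0367) rose, and SESN3 fell by 0.55 (adjusted p = 0.0354).

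Of 8 regulators and partners tied to ATF4, 6 were higher in 6WP than in WT cells and 0 were lower with edgeR (7 and 0 with DESeq2, and 7 and 0 at an unadjusted p-value under 0.05), beside 1.63% of all genes higher. ATF4 rose from 424 to 735 CPM (log2 fold change 0.80, standard error 0.11, adjusted p = 0.0155). CEBPG, a C/EBP family partner, rose by 1.15 (adjusted p = 0.00493), CEBPB by 1.77 (adjusted p = 0.00890), DDIT3 by 1.80 (adjusted p = 0.00528), NUPR1 by 1.26 (adjusted p = 0.0120) and TRIB3 by 1.62 (adjusted p = 0.0329). The 6WP libraries were far apart in TRIB3, with 515 and 246 CPM beside 122 and 125 in WT, and also in CEBPB, with 54.5 and 35.5 beside 12.4 and 14.0. They also differed in DDIT3 (144 and 96.7 CPM) and NUPR1 (324 and 227 CPM), and all of these genes were higher in 6WP replicate 1. ATF4 (739 and 731 CPM) and CEBPG (289 and 294 CPM) were close between the 6WP libraries. Against AM cells 5 of the 8 were higher (ATF4, CEBPB, CEBPG, DDIT3 and NUPR1), beside 11.7% of all genes, and in AM against WT cells 3 were higher (ATF5, CEBPG and DDIT3), beside 7.74%. Calls in the lists of mitochondrial carriers, sensing genes and regulators were not followed with single libraries left out. Over the whole table, calls in every comparison shifted when a library was left out, so these calls are not firmer than those of the members. Whether these regulators had a part in the transporter levels was not tested.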

How the data were processed

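RNA was extracted from 22Rv1 cells of the 3 groups, and stranded TruSeq libraries were read on an Illumina NovaSeq. According to the methods and the submitters' processing notes, reads were aligned to hg38 with STAR 2.5.3a, StringTie 1.3.3 was used for transcript assembly, and featureCounts 1.5.3 is named without a stated role. The deposited table holds raw counts for each gene symbol, before any normalization by the authors. The annotation is not given in the sources used here. Columns not used numbered 0.

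Counts were analysed with R 4.3.3 and edgeR 4.0.16. Of 29804 symbols, filterByExpr kept 14672. TMM factors and a quasi-likelihood model (glmQLFit, glmQLFTest) without covariates were fitted to all 6 libraries, and p-values (two-sided) were adjusted by the Benjamini-Hochberg method over all tested genes. Each standard error was the absolute log2 fold change over the square root of F. An exact permutation test of 2 against 2 libraries cannot go below p = 0.333. The p-values set each difference against the spread between these libraries, which was shared over the 3 groups and estimated with information from other genes. Whether the libraries of a group came from separate 6-week courses is not given in the labels. The members and gene lists were chosen with earlier results of these data known. All members were named, and of the other lists each gene that passed in any comparison, besides paralogs and partners of members. Positions, transcript lengths and overlaps came from GENCODE 44 on GRCh38, and promoters from RefSeq. The wider motif window and its sequences were added after the counts had been seen. The pipeline was tested on simulated data with planted changes larger than those of the members and the same dispersion in all groups. That test does not show the power or error for the members. DESeq2 1.42.0 was an alternative.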

Additional observations from a re-analysis of the deposited data

How the results depend on the processing

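Alternatives were DESeq2 size factors, upper quartile or library size scaling, no filter beyond 1 count, at least 10 counts in every library, the DESeq2 Wald test, a model of the 2 compared groups alone, a replicate block and each library left out, where a lone library is assumed to vary like the other groups. The labels link same-numbered libraries by number only. Their deviations from group means correlated at 0.0395 (WT and AM), 0.0873 (WT and 6WP) and -0.0206 (AM and 6WP) across genes. With 2 libraries per group, a shared culture or batch could not be tested. With the replicate block, 393 genes were called in 6WP against WT, 3069 in 6WP against AM and 2485 in AM against WT, with 6, 4 and 6 transporters among the members and 0, 3 and 6 among the others.

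In 6WP against WT cells, all genes called numbered 894 without filter, 1114 with DESeq2 and 96 with 2 groups, and other transporters called 3, 2 and 0, against 440 and 1. With 2 groups, 6WP against AM gave 3 members, 1 other transporter and 1309 genes, and AM against WT 10, 11 and 6620; DESeq2 gave 8 other transporters in AM against WT. With a library left out, calls ranged from 0 to 9 (members), 0 to 6 (others) and 0 to 3870 (all genes) in 6WP against WT, 1 to 8, 0 to 8 and 116 to 6807 in 6WP against AM, and 0 to 10, 0 to 11 and 67 to 6654 in AM against WT. The cause was not tested.

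SLC38A2 in 6WP against WT changed sign, to -0.0041 with DESeq2 size factors or the Wald test, -0.011 with library size, -0.010 without WT replicate 2 and -0.11 without 6WP replicate 2 (0.091 without 6WP replicate 1). With a 6WP library left out, 6WP against AM ranged from -0.097 to 0.18 for SLC38A1 and from -0.025 to 0.34 for SLC43A1. Each member had 350 or more counts in every library, and the effect of depth on the calls was not tested.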
